A study of Oryza sativa Japonica Group with 18 samples.

Results

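A set of 111 probe sets that were brighter in rice roots lacking either GIGANTEA (GI) or PHO2 is described here, of 57258 measured on the Affymetrix rice array. The members were chosen by their root values. Each had a mean log2(signal + 16) at least 1 above wild type (WT) in gi root and in pho2 root, all 6 mutant root arrays above all 3 WT root arrays, and a mean signal of at least 100 in one of the mutant roots. Signal is the deposited array intensity on a linear scale, and a root or shoot change is the difference of group means of log2(signal + 16), mutant less WT. Because root values chose the members, every root value below is a description and carries no test, while the shoot arrays had no part in the choice and are tested.

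The study profiled Oryza sativa Japonica, cultivar Nipponbare, in 6 groups of 3 arrays: WT, a GI knockout (gi) and a PHO2 knockout (pho2), each as root and as shoot. Plants of all groups were 21 days old and had sufficient phosphate, with 2 days of germination in water and 19 days in hydroponic culture under a 12 h photoperiod at 30 °C by day and 22 °C by night. The labels name the mutants as knockouts in Nipponbare and give no allele, line number or hour of harvest. They do not say whether replicates were separate plants, so the p-values cover only the spread among the arrays, part of which may be technical. Nor do they say whether root and shoot samples came from the same plants. The shoot tests may therefore not be fully independent of the choice made in root. GI is a clock-associated protein that controls photoperiodic flowering. PHO2 is a ubiquitin-conjugating enzyme that marks phosphate transport proteins for breakdown and so restrains phosphate uptake by the root and its movement to the shoot. The genes have been linked in rice through flowering time and phosphate balance.

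GI signal was 1.36 to 2.19 on the gi root arrays and 5.43 to 44.6 on the gi shoot arrays, against 6835 to 11520.5 on the others. PHO2 itself was not analysed here. Array medians lay between 52.3 and 70.2, and the correlation of replicate arrays across probe sets ran from 0.982 to 0.986 among roots and from 0.954 to 0.971 among shoots. The summed signal of 27 root marker genes was 92880 to 107146 on root arrays and 21182 to 26572 on shoot arrays, and the tissue labels were borne out by this contrast.

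At least 1 log2 unit above WT were 583 probe sets (1.02%) in gi root and 750 (1.31%) in pho2 root, and 235 were so in both. Of these 235, 78 had overlapping arrays and 46 more were too dim, which left the 111. The opposite pattern, both changes at or under -1, was met by 175 probe sets, and only 3 moved past 1 in opposite directions (2 with gi up, 1 with pho2 up). Both contrasts share the WT root arrays. Of the members, 68 were paired with 1 gene (61 genes, 7 of them with 2 probe sets), 1 with several and 42 with none in the tables used. A share of 61.3% with 1 gene compared with 39.2% of all probe sets.

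The root change of the members ran from 1.02 to 7.87 in gi (median 1.71) and from 1.001 to 8.52 in pho2 (median 1.69). Both changes reached 2 in 30 members and 3 in 17, while the smaller change stayed under 1.5 in 58. Many members were dim in WT root, where the mean signal had a median of 121, was under 100 in 55 members and under 50 in 40, and reached 500 in 16. For some members WT root replicate 2 stood far above the other WT root arrays, so the WT mean rests largely on it. LOC9268937 read 22.0, 371 and 25.3 in WT root, and a probe set without a gene 24.2, 999 and 24.4. Without WT root replicate 2 the rule gave 163 members, of which 99 were shared with the 111. The brightest in WT root was LOC4334981, at 3268 ± 2274 (SD, n = 3), with 9728 ± 428 in gi root and 6346 ± 602 in pho2 root, while no shoot array passed 58.6.

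**Figure D1:**
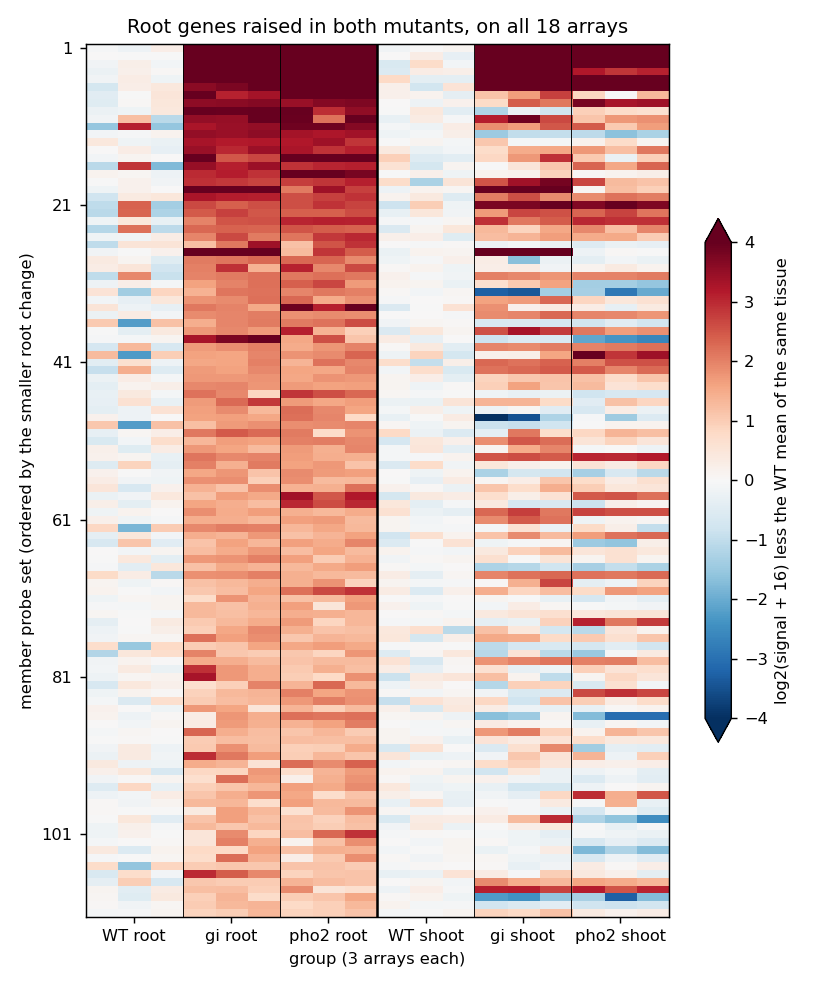
Each row is 1 of the 111 members, ordered by the smaller of the root changes, and each column 1 of 18 arrays. Colour gives log2(signal + 16) less the WT mean of the same tissue, cut at 4 units either way. The root side is red in both mutants because the members were chosen so, whereas the shoot side holds red, white and blue rows.

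Ranked by the smaller of the root changes, the first 6 members were dim in WT and bright in both mutants, in shoot as in root. LOC4325215, a chromosome 1 gene, read 3.21, 1.25 and 7.79 on the WT root arrays, 2562, 2292 and 2174 on the gi root arrays and 2219, 1685 and 1663 on the pho2 root arrays. In shoot it read 11.6, 14.7 and 16.8 in WT, 2095, 2309 and 2296 in gi and 2177, 2302 and 2388 in pho2. No mutant array came near a WT array in either tissue, and the gi and pho2 shoot arrays overlapped. The shoot change was 6.21 in gi (SE 0.11, limma adjusted p = 3.61e-11) and 6.25 in pho2 (limma adjusted p = 2.58e-11), and pho2 and gi shoots did not pass the test against each other (0.04, SE 0.11, limma adjusted p = 0.873). Another probe set of the same design family with no gene in the tables followed the same course, with shoot changes of 5.64 and 5.73.

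LOC4325213, close to LOC4325215 in gene order, read 21.7, 32.7 and 22.1 in WT root, 1159, 1155 and 1226 in gi root and 1622, 1579 and 1463 in pho2 root. Its shoot arrays read 7.77, 44.3 and 18.2 in WT, 1280.0, 1086 and 1392 in gi and 1142, 937 and 1224 in pho2, and its shoot changes were 5.11 (SE 0.27, limma adjusted p = 4.19e-07) and 4.92 (limma adjusted p = 3.21e-07). The pho2 root arrays lay above the gi root arrays, and the shoot arrays of the mutants overlapped. A probe set with no gene in the tables was brighter in mutant shoot than in mutant root: 1983, 2212 and 1786 in gi shoot and 1813, 1948 and 1895 in pho2 shoot, against 336, 513 and 503 and 576, 583 and 740.0 in root. WT read 26.5, 3.03 and 2.66 in shoot and 4.57, 11.6 and 3.97 in root. Its shoot changes, 6.34 in gi and 6.27 in pho2, were the largest of the members in either shoot (limma adjusted p = 3.51e-08 and 3.49e-08). Another probe set without a gene had root changes of 3.79 and 4.09 and shoot changes of 4.29 and 4.25 (limma adjusted p = 1.03e-06 and 6.04e-07).

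LOC4340325 on chromosome 6 separated the mutants in shoot. Its root arrays read 26.5, 42.4 and 36.1 in WT, 1103, 1412 and 1629 in gi and 1561, 1741 and 1826 in pho2, and its shoot arrays 29.5, 65.4 and 62.6 in WT, 1041, 1208 and 1171 in gi and 589, 459.9 and 539 in pho2. All gi shoot arrays lay above all pho2 shoot arrays, and these above WT. The shoot change of 4.12 in gi and 3.03 in pho2 differed by -1.09, pho2 less gi (SE 0.21, limma adjusted p = 0.00365). A second probe set of LOC4340325 had root changes of 0.07 and -0.15, and mean shoot signals of 243 in WT, 269 in gi and 244 in pho2. The change was thus not seen by both probe sets of this gene.

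A tight group of these genes lay together on chromosome 1. In the gene order of the RefSeq rice assembly ASM3414082v1, LOC4325209, LOC4325211, LOC4325213 and LOC4325215 fell within 6 successive annotated genes. Of the genes between them, LOC4325210 was dim (mean signal 2.01 in WT root, 7.81 in gi root) and LOC4325212 read 2100.4 in WT root, 1846 in gi root and 2064 in pho2 root, changes of -0.19 and -0.03. The next gene past the group, LOC4325216, also had small root changes, -0.15 and -0.27. The members on either side of LOC4325212 were raised by 2.02 and 4.86 in gi root.

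LOC4325209 had root changes of 1.97 in gi and 1.86 in pho2 and was called higher in gi shoot (2.05, limma adjusted p = 1.24e-06) and in pho2 shoot (1.88, limma adjusted p = 1.34e-06). LOC4325211 is Rictpi2, for triosephosphate isomerase, a glycolytic enzyme that interconverts the triose phosphates. Its member probe set read 600.0, 580.3 and 432 in WT root, 2415, 2052 and 2161 in gi root and 1714, 1481 and 1467 in pho2 root, then 467, 482 and 549 in WT shoot, 2941, 3115 and 2797 in gi shoot and 4269.7, 4161 and 4614 in pho2 shoot. The order of the mutants turned between tissues, gi being the brighter on root arrays and pho2 on shoot arrays, with no overlap. Its shoot changes were 2.53 (SE 0.09, limma adjusted p = 7.96e-09) and 3.08 (limma adjusted p = 1.26e-09), and pho2 shoot exceeded gi shoot by 0.56 (SE 0.09, limma adjusted p = 0.000969). The other probe set of this gene was far brighter, with a WT root mean of 18852, and its root changes were -0.32 and -0.47. Its mean shoot signals were 30790 in WT, 31014 in gi and 24136 in pho2, so the shoot rises were not seen there. The probe sets of TPI therefore do not give 1 direction for the gene.

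Farther along, LOC4324525 (27 genes on from LOC4325209), LOC4324057 (85 on) and LOC4327138 (134 on) were members, and LOC4325994 lay 113 genes before the group. LOC4324525 was called higher in both shoots (2.16 and 2.04, limma adjusted p = 0.0001 and 7.03e-05). LOC4325994 had root changes near the threshold (1.12 and 1.03) but larger shoot changes of 2.99 and 2.90 (limma adjusted p = 1.07e-06 and 7.67e-07), from 175, 247 and 199 on the WT shoot arrays to 1904, 1942 and 1439 in gi and 1920.1, 1245 and 1818 in pho2. A second, dim probe set of LOC4325994 had root changes of -0.72 and -0.40. Its mean shoot signals were 30.1 in WT, 47.5 in gi and 57.1 in pho2. LOC4327138 had 2 member probe sets, both called higher in gi shoot (0.85 and 0.95) and neither called in pho2 shoot (0.49 and 0.28). For the second of these, pho2 shoot less gi shoot was -0.67 (limma adjusted p = 0.00279), and for the first it did not pass the test (-0.36, limma adjusted p = 0.233).

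LOC4324057 was the 1 member gene of the stretch called lower in shoot. It read 84.8, 88.4 and 103 in WT root, 1218, 1167 and 1262 in gi root and 1058, 1008 and 1096 in pho2 root, and 423, 459 and 575 in WT shoot, 166, 233 and 239 in gi shoot and 223, 143 and 189.9 in pho2 shoot. The WT arrays were apart from all mutant arrays in both tissues, and the gi and pho2 shoot arrays overlapped. It fell in gi shoot (-1.14, limma adjusted p = 0.00236) and in pho2 shoot (-1.33, limma adjusted p = 0.000436).

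The 135 annotated genes from LOC4325209 to LOC4327138 hold 66 measured genes, of which 7 were member genes. Of the other 59, 2 had both root changes at or above 1 without meeting the rest of the rule, 1 had both at or under -1, and 54 were tested in shoot. In gi shoot 10 of these 54 were called higher and 8 lower, and in pho2 shoot 13 and 12. Of all tested probe sets, 8.98% were higher and 8.56% lower in gi shoot, and 14.4% and 14.2% in pho2 shoot. The non-members of the stretch were thus called more often than probe sets in general, in each direction and mutant. LOC4324521, dim at 4.83 in WT root and 88.4 in gi root, was 1 of the 2, with root changes of 2.32 and 1.98. GI itself lies 265 genes on from LOC4325209 on the same chromosome. The stretch was picked out after its values were seen and carries no test. Chromosome 1 holds 10 of the 61 member genes and 2649 of the measured genes (0.378%), against 0.667% on chromosome 10 and 0.0471% on chromosome 2.

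**Figure D2:**
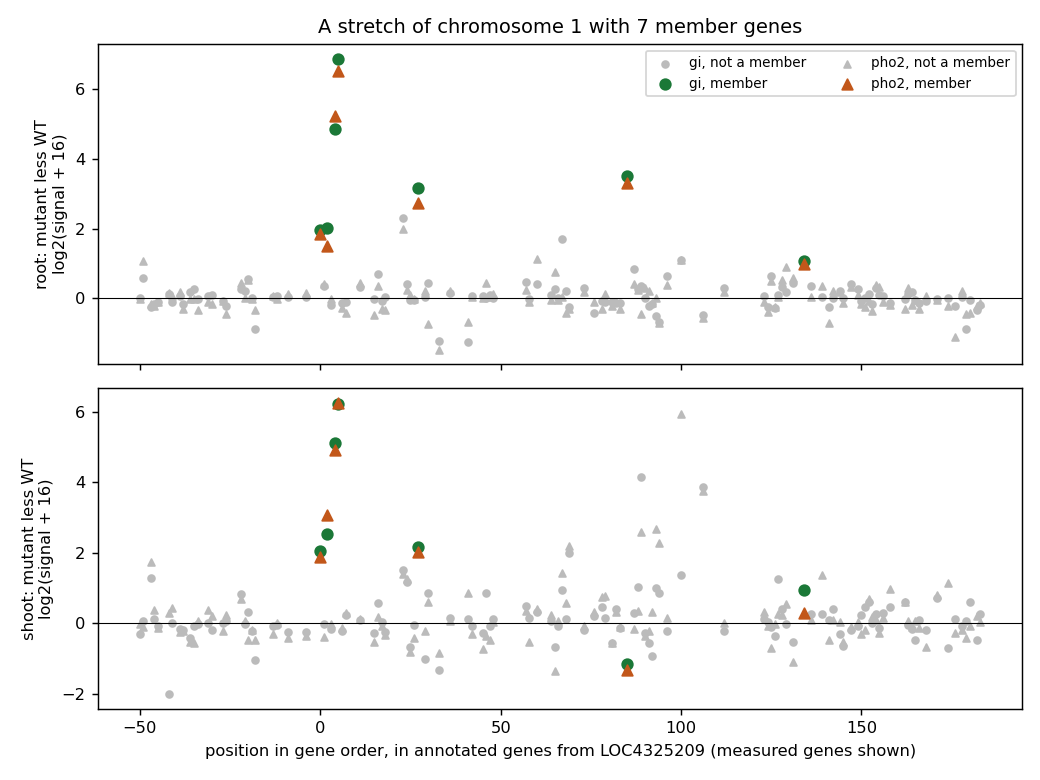
Root (upper) and shoot (lower) changes of the measured genes of a stretch of chromosome 1, as log2(signal + 16) of the mutant less WT, against position in gene order from LOC4325209. Circles are gi and triangles pho2, coloured for members and grey for the rest. The tallest points in root are LOC4325215 and LOC4325213, and the member below 0 in shoot is LOC4324057.

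Other member genes were also neighbours. The counts that follow have no share over all measured genes beside them, so they do not show that members lie closer than other genes. In all, 12 of the 61 had another member gene within 2 genes and 16 within 25. Besides the chromosome 1 group these were LOC4332422 with LOC4332423 and LOC4333009 with LOC4333011 on chromosome 3, LOC4343033 with LOC4343034 on chromosome 7, and LOC4348206 with LOC4348208 on chromosome 10. Within the first pair, LOC4332422 read 422 ± 116 in WT root, 1169 ± 214 in gi root and 3549 ± 1051 in pho2 root (SD, n = 3). It was called higher in pho2 shoot (2.39, limma adjusted p = 0.000419) and was not called in gi shoot (0.49, limma adjusted p = 0.417). Its pho2 shoot exceeded its gi shoot by 1.90 (limma adjusted p = 0.00355). LOC4332423 was too dim to be tested in shoot.

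Only 9 members carried a gene name beyond a locus number, and they were enzymes, transporters and a photoreceptor. Of the enzymes of fatty acid oxidation and jasmonate-related metabolism, OPR10 (also OPR4) belongs to the 12-oxophytodienoate reductase family. It read 16.7, 31.1 and 47.7 on the WT root arrays, 533, 546 and 566 on the gi root arrays and 484, 578 and 599.9 on the pho2 root arrays. Shoot arrays read 18.8, 13.8 and 22.4 in WT, 41.6, 165 and 132 in gi and 458, 318 and 342 in pho2. In root the mutants overlapped, and in shoot every pho2 array lay above every gi array and every gi array above WT. OPR10 rose in gi shoot by 1.76 (SE 0.38, limma adjusted p = 0.00757) and in pho2 shoot by 3.49 (limma adjusted p = 4.2e-05), and pho2 shoot exceeded gi shoot by 1.73 (SE 0.38, limma adjusted p = 0.00776).

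CM-LOX1 (also LOX8) encodes a lipoxygenase, an enzyme that adds oxygen to polyunsaturated fatty acids at the head of oxylipin synthesis. It read 176, 132 and 155 in WT root, 503, 508 and 482 in gi root and 768, 641 and 275 in pho2 root. In shoot it read 1554, 1859 and 2371 in WT, 97.3, 154 and 805 in gi and 1849, 701 and 1298 in pho2. All gi shoot arrays were below WT, with 1 gi array far above the other gi arrays, and the pho2 arrays overlapped both. CM-LOX1 fell in gi shoot (-2.93, SE 0.57, limma adjusted p = 0.00396) and did not pass the test in pho2 shoot (-0.67, limma adjusted p = 0.45). The pho2 less gi difference was 2.26 (SE 0.57, limma adjusted p = 0.016).

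These were 2 of 39 measured genes on a list of oxylipin and jasmonate names. In shoot, 12 of its 33 tested genes were called higher and 5 lower in gi (median change 0.10), and 13 and 7 in pho2 (median -0.02), against a median of -0.01 over all tested probe sets in each mutant. Of all tested probe sets, 8.98% were called higher and 8.56% lower in gi shoot, and 14.4% and 14.2% in pho2 shoot, which is also the background for each list below. JAZ genes, which encode repressors of jasmonate signalling and are themselves induced by it, were among those raised in shoot: JAZ11 by 2.24 in gi and 4.83 in pho2 (limma adjusted p = 0.00361 and 9.64e-06). JAZ12 rose by 2.10 and 3.16 (limma adjusted p = 0.000225 and 6.08e-06). Their root changes were small, 0.20 and 0.40 for JAZ11 and 0.38 and 0.51 for JAZ12, and neither was a member. AOS2, for allene oxide synthase, fell in shoot (-1.26 in gi and -1.61 in pho2, limma adjusted p = 0.0318 and 0.00533).

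Among the transporters, IRT1 encodes a ferrous iron transporter of the root. It read 941, 817 and 756 in WT root, 2455, 2905 and 1839 in gi root and 3169.9, 2776 and 2638 in pho2 root. In shoot it read 334, 291 and 360.2 in WT, 127, 193 and 185 in gi and 121, 203 and 146 in pho2. The mutants lay above WT in every root array and below WT in every shoot array. IRT1 fell in gi shoot (-0.92, SE 0.22, limma adjusted p = 0.0134) and in pho2 shoot (-1.02, limma adjusted p = 0.00432). The gi call ended when WT shoot replicate 1 or 3 was left out (limma adjusted p = 0.0527 and 0.0608). IRT1 was the only member of 56 measured genes on the iron and metals list, on which 5 of 48 tested were higher and 11 lower in gi shoot (median -0.07) and 7 and 15 in pho2 shoot (median -0.23).

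HAK17 and HAK4 belong to the HAK family of potassium transporters. HAK17 was a shoot-bright gene, with 5564 ± 666 in WT shoot against 137 ± 11.1 in WT root (SD, n = 3). It read 354, 329.9 and 389 on the gi root arrays and 457, 199 and 486 on the pho2 root arrays, 1 of which stood close to WT. It did not pass the test in gi shoot (0.09, SE 0.11, limma adjusted p = 0.659) or pho2 shoot (-0.08, limma adjusted p = 0.675). A second HAK17 probe set had root changes of 0.35 and 0.70. HAK4 read 23.5, 82.2 and 39.8 in WT root, 461, 308 and 211 in gi root and 95.1, 112 and 115 in pho2 root, with all gi arrays above all pho2 arrays, and its shoot signal was too dim to be tested (no array above 30.0). They were the 2 members of 23 measured potassium genes, of which 20 were tested in shoot: 3 higher and 4 lower in gi (median -0.13), 4 and 5 in pho2 (median -0.01).

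The other named enzymes and the photoreceptor were brighter in shoot than in root. GLO1 encodes glycolate oxidase, a peroxisomal enzyme of photorespiration. It read 13.2, 69.5 and 68.9 in WT root, 123, 239 and 614 in gi root and 119, 328 and 422 in pho2 root, against 18907 ± 613 in WT shoot (SD, n = 3). It fell in pho2 shoot (-0.37, SE 0.08, limma adjusted p = 0.00444) and did not pass the test in gi shoot (-0.18, limma adjusted p = 0.161). The pho2 call was lost after quantile normalization (-0.05, limma adjusted p = 0.625) and in a fit of all 18 arrays (limma adjusted p = 0.62). A second GLO1 probe set, at a mean of 2306 in WT root, had root changes of -0.06 and 0.08.

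LOGL3 belongs to the LOG-like family of enzymes that release active cytokinins. It read 58.5, 68.1 and 19.3 in WT root, 229, 444 and 143 in gi root and 499.9, 214 and 361 in pho2 root, and 2656 ± 314 in WT shoot (SD, n = 3). It did not pass the test in gi shoot (0.15, SE 0.13, limma adjusted p = 0.498) or pho2 shoot (0.22, limma adjusted p = 0.244). It was the only member of 32 measured cytokinin genes, of which 29 were tested in shoot: 5 higher and 2 lower in gi (median 0.19), 4 and 8 in pho2 (median -0.05).

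PHOT1A encodes a phototropin, a blue light receptor kinase. It read 1028, 898 and 1061 in WT root, 2018, 2468 and 2601 in gi root and 1723, 1933 and 2462 in pho2 root. In shoot it read 23189.5, 19874 and 20284 in WT, 12251, 14079 and 15566 in gi and 11989.5, 11928 and 12680.5 in pho2, where the WT arrays lay above all mutant arrays. PHOT1A fell in gi shoot (-0.60, SE 0.09, limma adjusted p = 0.00106) and in pho2 shoot (-0.79, limma adjusted p = 7.96e-05). A further member of the same design family, matching several genes in the tables, fell (-1.06 and -1.18, limma adjusted p = 0.000134 and 2.79e-05).

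**Figure D3:**
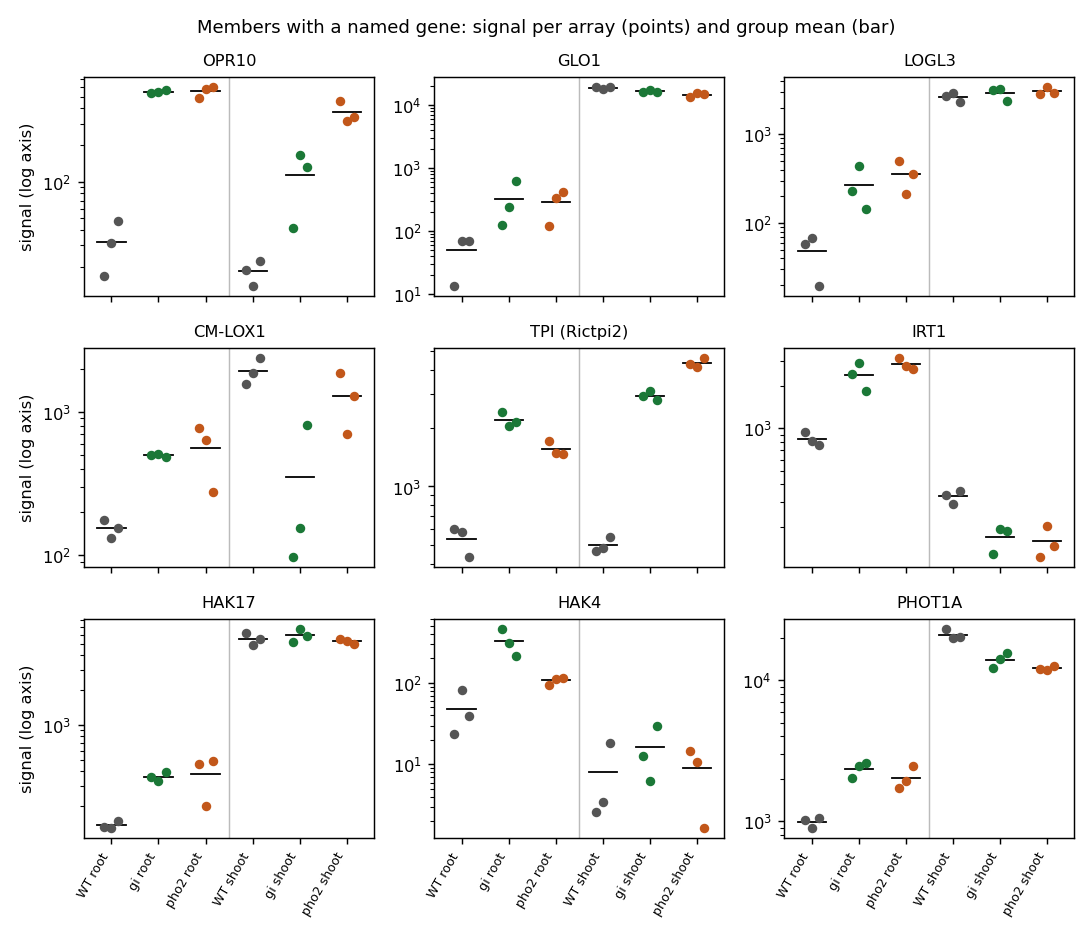
Signal (log axis) of the 9 members with a named gene on all 18 arrays, with a point per array and a bar at each group mean of 3. All panels are higher in both mutant roots than in WT root by choice. The shoot points rise in OPR10 and TPI, fall in IRT1 and PHOT1A, and fall in CM-LOX1 in gi and in GLO1 in pho2, by the limma calls.

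The remaining lists held few or no members. None of 16 clock and flowering genes, 28 phosphate genes, 144 stress and ABA genes, 56 cell wall and peroxidase genes or 45 sugar genes was a member. Member genes were rare, from 0.0471% of measured genes on chromosome 2 to 0.667% on chromosome 10, so absence from lists of this size says little. In gi shoot, the counts higher and lower were 2 and 3 of 16 tested clock genes (median -0.20), 2 and 5 of 21 phosphate genes (median 0.02), 22 and 9 of 127 stress genes (median 0.01), 12 and 0 of 36 cell wall genes (median 0.81) and 5 and 3 of 30 sugar genes (median -0.03). In pho2 shoot they were 2 and 9 (median -0.43), 3 and 5 (median -0.18), 34 and 17 (median 0.08), 15 and 3 (median 0.73) and 9 and 6 (median 0.30). Of the phosphate genes, 5 had a pho2 root change of at least 1 and 0 a gi root change of at least 1, so none met both conditions.

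The mutants differed most in root for a few members. For 80 members the root changes were within 0.5 of each other. The pho2 root arrays all lay above the gi root arrays for 21 members and all below for 17, against 9.95% and 11.5% of all probe sets, and they overlapped for 73. LOC4331398 on chromosome 3 was the member most above gi in pho2 root. Its first probe set read 2.60, 8.73 and 19.0 in WT root, 659, 197 and 235 in gi root and 8832, 9559 and 9407 in pho2 root, changes of 3.71 and 8.52. Its other member probe set gave 3.07 and 8.07. In shoot the first probe set rose in gi by 1.85 (limma adjusted p = 0.0148) and was not called in pho2 (0.71, limma adjusted p = 0.297), the second was too dim to be tested, and the gi call ended without WT shoot replicate 3 or gi shoot replicate 3 (limma adjusted p = 0.0604 and 0.056). Directly between the mutants it did not pass the test in shoot (-1.15, pho2 less gi, limma adjusted p = 0.107).

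LOC9268308 on chromosome 7 had the reverse pattern. Its first probe set read 6.10, 7.83 and 11.3 in WT root, 5545, 5520.0 and 5905 in gi root and 41.8, 160.4 and 113 in pho2 root, and 3.48, 9.91 and 9.54 in WT shoot, 466, 368 and 392 in gi shoot and 4.37, 7.96 and 7.17 in pho2 shoot. The gi arrays stood far above the pho2 arrays in both tissues. Its second probe set had root changes of 7.62 and 2.74. In shoot, both rose in gi (4.17 and 5.53, limma adjusted p = 7.49e-06 and 7.34e-07) and neither was called in pho2 (-0.06 and 0.74), with pho2 less gi at -4.23 and -4.79 (limma adjusted p = 6.68e-06 and 2.39e-06).

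LOC9268613 on chromosome 10 was also higher in pho2 root than gi root (1927, 1693 and 461 against 258, 291 and 238), with 1 pho2 array well under the others, and was not called in either shoot (0.40 and 0.14). A second LOC9268613 probe set had root changes of 1.51 and -0.12. A probe set without a gene was higher in gi root (168, 240.2 and 339) than in pho2 root (38.5, 95.2 and 24.4), and fell in pho2 shoot (-2.35, limma adjusted p = 8.45e-06).

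Among all the members, shoot changes leaned the way of the root changes, with a sizeable minority opposed. Of 111 members, 95 passed the filter on dim probe sets and were tested in shoot. In gi shoot, 46 were called higher and 12 lower, with 37 not called, against 8.98% higher and 8.56% lower of all tested probe sets. In pho2 shoot, 43 were higher and 20 lower, against 14.4% and 14.2%. With no filter, so that all 111 were tested, 41 were higher and 10 lower in gi (all probe sets 4.76% and 4.3%) and 41 and 16 in pho2 (7.9% and 7.67%). The higher counts were thus above the background share in both mutants, and the lower counts were closer to it.

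The median shoot change of all 111 members was 0.52 in gi (quartiles -0.07 and 1.88) and 0.50 in pho2 (-0.17 and 1.81), with 0.00 and -0.01 over all probe sets. All gi shoot arrays were above all WT shoot arrays for 50 members (45.05%, against 12.5% of all probe sets) and below for 16 (14.4%, against 12.7%). In pho2 shoot these were 52 (46.8%, against 15.2%) and 20 (18.02%, against 15.6%). Both shoot contrasts share the WT shoot arrays. The gi median was 0.78 without gi shoot replicate 1, and the pho2 median was 0.33 without WT shoot replicate 1 and 0.29 with a pseudocount of 64. LOC4335460 and LOC4350668 were called in opposite directions in the mutants. Median centring of the arrays moved the median of all tested probe sets from -0.01 to -0.12 in gi shoot and the share of higher calls among all gi shoot calls from 51.2% to 40.5%. After centring, 42 members were called higher and 14 lower in gi shoot.

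**Figure D4:**
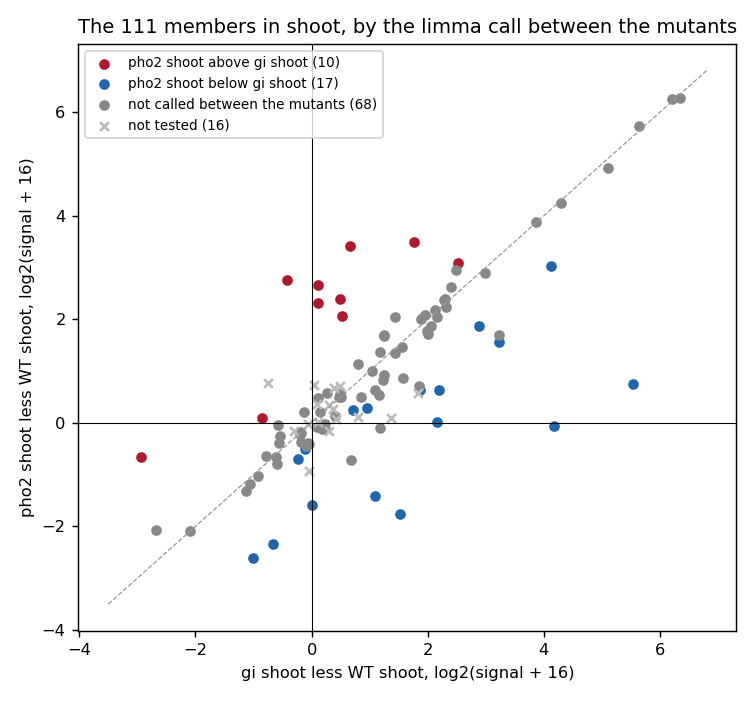
Shoot changes of the 111 members, gi on the horizontal and pho2 on the vertical axis, as log2(signal + 16) of the mutant less WT, coloured by the limma call between the mutants, with a dashed line of equal change. The 10 members called higher in pho2 than in gi shoot lie above the line, and the 17 called lower lie below it. Both axes share the WT shoot arrays.

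LOC4335460 on chromosome 4 read 618, 553 and 631 in WT shoot, 539, 391 and 407 in gi shoot and 3839.9, 4696 and 3916 in pho2 shoot. It rose in pho2 shoot by 2.75 (limma adjusted p = 8.73e-08) and fell in gi shoot (-0.43, limma adjusted p = 0.0376), a gi call that 9 of 19 alternative settings ended. The pho2 less gi difference was 3.18 (SE 0.13, limma adjusted p = 1.18e-07). LOC4350668 on chromosome 11 was called the other way, 1.09 in gi and -1.42 in pho2 (limma adjusted p = 0.00267 and 0.000227). It is named because only 2 members had opposite calls and was chosen after its values were seen. Directly between the mutants, 10 members were called higher and 17 lower in pho2 shoot than in gi shoot, against 9.76% and 9.21% of all tested probe sets.

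Several bright members fell in both shoots. LOC4348283 on chromosome 10 read 2744, 2487 and 2825 in WT shoot, 264, 239 and 1025 in gi shoot and 1064, 355 and 653 in pho2 shoot, changes of -2.68 and -2.06 (limma adjusted p = 0.00199 and 0.00556). One WT root array of LOC4348283 was far under the others (988, 245 and 1222), against 1796, 2997 and 3100.4 in gi root and 2652, 2944 and 2768 in pho2 root. A second LOC4348283 probe set, at a mean of 343 in WT root, had root changes of -0.01 and -0.15, with mean shoot signals of 212 in WT, 179 in gi and 247 in pho2. LOC4335593 on chromosome 4 read 3874, 4143 and 3345 in WT shoot, 771, 685 and 1273 in gi shoot and 1541, 378 and 1131 in pho2 shoot, changes of -2.09 and -2.09 (limma adjusted p = 0.00316 and 0.00168). The WT shoot arrays of both genes stood above all mutant shoot arrays. LOC4333009 on chromosome 3 fell in pho2 shoot (-0.70, limma adjusted p = 3.91e-05) and was not called in gi shoot (-0.24, limma adjusted p = 0.0526). A probe set without a gene fell (-0.62 and -0.66, limma adjusted p = 0.00164 and 0.00055), calls lost in the fit of all 18 arrays (0.488 and 0.422), and another fell in pho2 shoot alone (-1.59, limma adjusted p = 0.000184).

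The members fell into classes by their WT tissue pattern, with limits chosen after the values were seen. WT shoot and WT root were within 1 log2 unit for 49 members, of which 42 were tested in shoot: 28 were called higher and 2 lower in gi, and 30 and 0 in pho2. Of all tested probe sets of this pattern, 4.93% were higher and 7.82% lower in gi, and 9.93% and 11.4% in pho2. WT shoot was at least 1 unit below WT root for 24 members, with 15 tested, 7 higher and 1 lower in gi and 7 and 2 in pho2, against 16.8% and 2.77% of all tested probe sets of the pattern in gi and 33.3% and 3.53% in pho2. It was 1 to 4 units above for 21 members, all tested, with 10 higher and 6 lower in gi and 6 and 7 in pho2, against 10.7% and 14.8% in gi and 8.65% and 26.4% in pho2. For 17 members it was at least 4 units above, all tested, with 1 higher and 3 lower in gi and 0 and 11 in pho2, against 20.3% and 19.4% in gi and 9.91% and 55.1% in pho2. The classes use the WT shoot values that also enter the shoot changes. LOC4334643, of the class brighter in root, read 2897 ± 826 in WT root, 11098 ± 1708 in gi root and 10651 ± 2921 in pho2 root (SD, n = 3), and was called higher in both shoots (1.86 and 0.64).

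The 17 shoot-bright members, GLO1, LOGL3, HAK17 and PHOT1A among them, were faint in root next to shoot. Their median root signal was 1.18% of the mean WT shoot signal in WT, 3.50% in gi and 6.53% in pho2. Over single root arrays the median was 0.991%, 1.36% and 1.13% in WT, 2.62%, 5.20% and 3.63% in gi, and 3.67%, 4.24% and 5.34% in pho2. The WT and mutant arrays did not overlap, as the rule requires of each member. Among 1153 other probe sets with the same WT tissue pattern, the median was 1.52%, 1.55% and 1.51% on the WT root arrays, 1.80%, 2.38% and 2.30% on the gi root arrays and 1.48%, 1.93% and 2.19% on the pho2 root arrays. Their root change had a median of 0.30 in gi and 0.21 in pho2, and reached 1 in 118 (10.2%) in gi and 65 (5.64%) in pho2, against 1.02% and 1.31% of all probe sets.

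Of 14 shoot marker genes other than the member GLO1, 6 had a root change above 0 and 8 below 0 in gi (median -0.06). In pho2, 9 were above 0 and 5 below (median 0.24). The genes named next are examples from either side, and most genes above 0 and most below 0 in gi root are not named. RCA, for Rubisco activase, had root changes of 1.21 in gi and 1.44 in pho2, and PSAH of photosystem I 0.89 and 0.62. PSAG, also of photosystem I, went the other way in gi root, at -0.63 and 0.27, and PPDK2, for a pyruvate phosphate dikinase, was lower in both mutant roots, at -1.56 and -1.58. Over the 14 genes the summed signal was 51218 to 53572 on the WT root arrays, 53520.3 to 59709 on the gi root arrays and 47871 to 52829.6 on the pho2 root arrays, and 187709 to 280578 on shoot arrays. Between 0 and 3 of the 14 read under 16 on a root array. Fewer cells of a type and less RNA per cell cannot be told apart in whole organs, and the part of photosynthetic tissue in these root values was not tested.

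**Figure D5:**
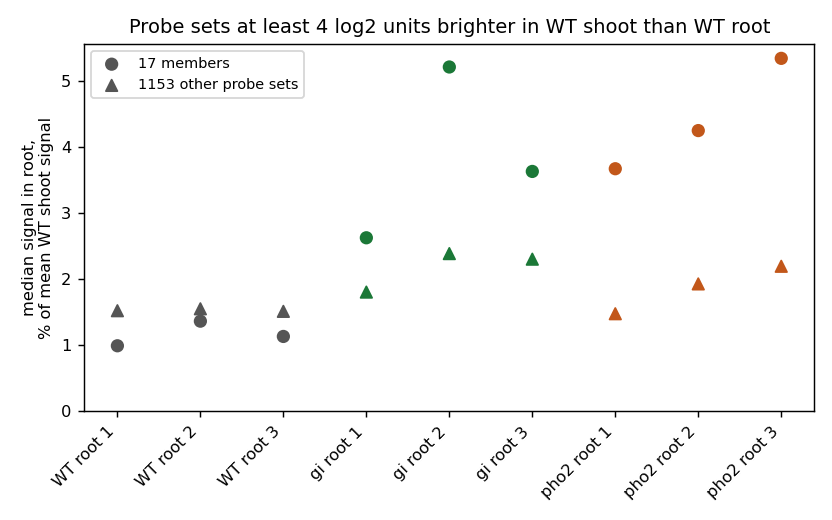
Median root signal, as a percentage of each probe set's mean WT shoot signal, on the 9 root arrays, for the 17 shoot-bright members (circles) and 1153 other probe sets with the same WT tissue pattern (triangles). Both symbols are higher on the gi arrays than on the WT arrays, and 1 pho2 array has a triangle just under WT.

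Probe sets of a gene did not always move together. The gene of a member had 25 further probe sets in all on the array that were not members. For LOC4344909 on chromosome 8, 5 further probe sets had root changes of 0.18 to 0.96 in gi and 0.63 to 1.46 in pho2, all positive. For LOC4331468 on chromosome 3, 2 further and brighter probe sets had root changes of -0.04 and -0.08 in gi and -0.26 in pho2, against 1.38 and 1.32 in gi and 1.15 and 1.09 in pho2 for its 2 member probe sets. Of the members, 15 had probe set names ending in x_at and 7 in s_at, the endings for probes that may match more than 1 transcript (13.5% and 6.31%, against 12.5% and 4.94% of all probe sets). Of the member genes named above, LOC4324525, LOC9268613, LOC4331468 and LOC4343033 had only member probe sets of these kinds. LOC4331398, LOC9268308, LOC4327138 and LOC4343034 had 1 such member probe set beside 1 of another ending. Members of these kinds, and the genes named above whose probe sets disagree, are uncertain as single-gene readings.

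At the threshold, the members with the smallest changes were 1 probe set of LOC4327138 at 1.001, PHOT1A at 1.01, LOC4335593 at 1.02 and LOC4325994 at 1.03 (the smaller root change). Just outside were LOC4352844 at 0.998, a probe set without a gene at 0.997, LOC4329983 at 0.996 and PEX11-1, for a protein of peroxisome division, at 0.982. With both changes required to reach 1.5 the rule gave 53 members, and with 0.8 it gave 167.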

How the data were processed

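The authors deposited intensity values, 1 per probe set and array on a linear scale, made with MAS5 per the submitters' processing notes. No version, setting or genome build is stated there. The 123 Affymetrix control probe sets were left out, and no pair of arrays was identical. The number of arrays limits the precision.

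Values were used as log2(value + 16), so changes of dim probe sets are understated. The members came from the stated rule on root arrays. The 9 shoot arrays were fitted together by lmFit, then eBayes with a trend on intensity (limma 3.58.1, R 4.3.3), without probe sets under the 40th percentile of mean log2 value (a signal of about 32.0), which left 34355. Tests were two-sided with Benjamini-Hochberg adjustment over all tested probe sets, and a call is an adjusted p under 0.05. The fit was also run on simulated data with independent noise, in which only brighter probe sets were changed. That run does not bear on dim members or on effects shared within an array.

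Alternatives changed the pseudocount (1, 64), the filter, normalization (quantile, median centring), the arrays and spread model in the fit, a replicate block, each array left out, and the limits of the rule. Probe sets were named through the platform annotation and a RefSeq gene table (assembly ASM3414082v1, used for names and gene order): 22436 had 1 gene, 95 several and 34727 none. Probe sets with no gene are described without their array identifier. Named in the text are members with a gene name, the 8 with the largest smaller root change, up to 5 called with the smallest p per mutant and direction in shoot, the 3 at either end of the difference between the mutants in root, and the 4 on either side of the threshold, plus members of the gene lists. Further genes, chosen after their values were seen, are named for their place in gene order, tissue class or level, for opposite calls, or for disagreeing probe sets. Gene lists, by patterns in gene names, covered oxylipin and jasmonate, cytokinin, clock and flowering, phosphate, iron and metals, potassium, stress and ABA, cell wall and peroxidases, and sugars, beside root and shoot markers. The members, lists and tests were chosen with earlier results of these data known. Promoter motifs were foreseen and are not analysed here.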

Additional observations from a re-analysis of the deposited data

Results flagged for a closer look

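For 13 of the members named in the report, every array of a mutant lay above WT in root and below WT in shoot. Opposite directions in the 2 tissues brought them out, and the difference between tissues was not tested, since the root direction was fixed by the choice of members. Every gi shoot array was below WT for 14.4% of all members, against 12.7% of all probe sets. In pho2 shoot these shares were 18.02% and 15.6%, so the pattern was close to its background share in both mutants. Several of the 13 were also named because their lower shoot calls had the smallest p. The shoot changes, in gi and then in pho2, were -1.14 and -1.33 for LOC4324057, -2.68 and -2.06 for LOC4348283, -2.09 and -2.09 for LOC4335593, -0.92 and -1.02 for IRT1, -0.60 and -0.79 for PHOT1A, and -0.18 and -0.37 for GLO1. They were -0.24 and -0.70 for LOC4333009. Among probe sets without a single gene they were -1.06 and -1.18 for the one of PHOT1A's design family that matches several genes, -0.62 and -0.66 for a second, and -0.66 and -2.35 for the one higher in gi root than in pho2 root. In gi alone the arrays opposed each other in this way for CM-LOX1 (-2.93) and LOC4335460 (-0.43), and in pho2 alone for a probe set without a gene (-1.59). Of these 23 shoot values, those of GLO1 and LOC4333009 in gi shoot did not pass the limma test.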

How the results depend on the processing

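Of 44 shoot calls of named members, 37 kept their call in all alternatives run for them, 7 lost it in at least 1 and 0 reversed. The 7 were GLO1, IRT1, LOC4331398, LOC4335460, and, among probe sets without a gene, the gi call of the one higher in gi root than in pho2 root and both calls of another, and the cause was not tested. Over the other settings, members called higher ranged from 41 to 51 in gi shoot and from 40 to 51 in pho2 shoot, and members called lower from 8 to 14 and from 12 to 21. The 12 came from the fit of all 18 arrays. With single arrays left out, the ranges were 40 to 47 and 39 to 44 higher, and 9 to 13 and 14 to 20 lower. Between pho2 and gi shoot they were 8 to 11 higher and 14 to 21 lower.

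The members' median shoot change in gi was 0.75 with a pseudocount of 1, 0.42 with 64, 0.42 with median centring and 0.50 to 0.78 with single arrays left out. In pho2 it was 0.64 with a pseudocount of 1, 0.29 with 64, 0.44 with quantile normalization, 0.43 with median centring, and 0.33 (without WT shoot replicate 1) to 0.52 with single arrays left out. The rule gave 53 members at a minimum change of 1.5, 167 at 0.8 and 170 where arrays may overlap. With a root array left out it gave 105 to 163, of which at least 99 were shared with the 111, and after quantile normalization 104, of which 102 were shared.

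No pairing by replicate number was seen in the shoot values: deviations from the group means of same-numbered arrays correlated at -0.0644 to 0.0265. The labels do not say whether same-numbered samples were handled together, and these values cannot settle it. With the replicate number as a block, members called were 45 higher and 10 lower in gi shoot, 43 and 17 in pho2 shoot, and 10 and 17 between pho2 and gi shoot. Over all tested probe sets, gi shoot calls went from 3085 higher and 2942 lower to 2218 and 1747 with no intensity trend, 1899 and 2792 after median centring, 2146 and 1703 without WT shoot replicate 1, 2234 and 1801 without WT shoot replicate 3, and 2151 and 1961 without gi shoot replicate 2. Signals near background limit the 16 members not tested in shoot.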
